A study of Mus musculus with 8 samples.

Results

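Connexins and intercalated disc genes were examined as a group of 10 genes, chosen by their symbols for their place in cell junctions. They are 4 connexins (Gja1, Gja4, Gja5 and Gjc1), 2 genes of the adherens junction (Cdh2 and Ctnna3) and 4 genes of the desmosome (Dsp, Pkp2, Jup and Dsg2), out of 20701 gene symbols in the deposited table. Polyadenylated RNA was sequenced from the outflow tract and right ventricle (OFT/RV), dissected from single mouse embryos at stage E10.5. The libraries comprised 4 controls (CTRL), labelled wild type, and 4 embryos labelled as Isl1 hypomorphs (Isl1_hypo), and the strain of all 8 was C57BL/6. A hypomorph keeps some expression of the gene: Isl1, which encodes a LIM-homeodomain transcription factor of the second heart field, is reduced but not removed, and it is reduced in the whole animal and not in a chosen cell type. Each library is 1 embryo, so a p-value here measures the spread between embryos.

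Cells of the developing heart are held together and coupled at their contacts. Connexins assemble into gap junction channels through which ions pass, and the impulse with them, from cell to cell. Classical cadherins and desmosomal cadherins bind across the gap between neighbours and are tied by catenins and plakins to actin and to intermediate filaments. In the mature ventricle these structures gather at the ends of the muscle cells as the intercalated disc, whereas in the embryo they are still spread along the cell borders. Inherited changes in desmosomal genes are a known cause of arrhythmogenic cardiomyopathy.

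Promoter sequence was read for the 3 genes on which the account below turns most: Dsp, the only gene of the group whose CTRL and Isl1_hypo libraries did not overlap, and Jup and Gja1, in which the Isl1_hypo embryos were spread most widely. The 250 bases before the annotated start are given 5′ to 3′ on the strand of the gene, from RefSeq on build GRCm38.p6, at chr13:38151044-38151293 for Dsp on the plus strand, chr11:100397791-100398040 for Jup on the minus strand and chr10:56377050-56377299 for Gja1 on the plus strand. Capitals mark matches on either strand to a GC box (GGGCGG), a T-box site (AGGTGT), an NK homeodomain site (AAGTG), a LIM homeodomain core (TAATG) or a site of the GATA family (AGATAA), and no matches of different motifs overlapped in these windows.
Dsp: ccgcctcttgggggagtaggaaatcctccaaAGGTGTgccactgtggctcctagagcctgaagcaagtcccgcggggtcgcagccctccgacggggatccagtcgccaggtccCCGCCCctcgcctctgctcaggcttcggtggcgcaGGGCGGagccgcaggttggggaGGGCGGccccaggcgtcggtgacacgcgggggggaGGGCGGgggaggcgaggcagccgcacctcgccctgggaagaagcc
Jup: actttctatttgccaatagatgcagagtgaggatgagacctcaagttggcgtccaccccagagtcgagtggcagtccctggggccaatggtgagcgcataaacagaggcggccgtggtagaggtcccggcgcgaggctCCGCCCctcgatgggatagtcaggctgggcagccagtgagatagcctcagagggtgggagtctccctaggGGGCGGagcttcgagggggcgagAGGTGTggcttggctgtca
Gja1: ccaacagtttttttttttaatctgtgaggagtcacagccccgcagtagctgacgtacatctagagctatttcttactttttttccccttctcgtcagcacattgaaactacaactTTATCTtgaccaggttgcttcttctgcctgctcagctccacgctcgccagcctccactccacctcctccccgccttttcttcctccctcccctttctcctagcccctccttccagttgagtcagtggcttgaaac
The Dsp window was 72.4% GC, above 94.0% of the promoters in the table, and held 4 GC boxes and 1 T-box match. The Jup window was 62.0% GC with 2 GC boxes and 1 T-box match, and the Gja1 window was 50% GC with a single GATA match. None of these 3 windows held TAATG or AAGTG. Among 32851 promoters cut to the same length, GGGCGG was found in 32.7%, AGGTGT in 11.8%, AAGTG in 40.7%, TAATG in 23.9% and AGATAA in 9.99%. These matches describe the letters and do not show that a factor binds. Promoters of 6 of the 10 genes were in the table, and those of Gjc1, Pkp2, Cdh2 and Dsg2 were not used here.

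The libraries held 29748458 to 46678973 counts in CTRL and 18422245 to 33050298 counts in Isl1_hypo, with 1 transcript kept per gene. Levels are given as CPM, the count of a gene scaled to the depth of its library, with depths adjusted by the TMM method so that libraries of unlike makeup can be compared. Isl1 itself stood at 29.6, 61.5, 46.2 and 51.3 CPM in CTRL 1 to 4 and at 12.7, 6.86, 7.71 and 11.4 CPM in Isl1_hypo 1 to 4. It fell in Isl1_hypo, by 2.29 on the log2 scale (standard error, SE, 0.256, edgeR adjusted p = 0.0077), and was lower in 4 of 4 embryos. The log2 fold change was -2.29 with the replicate number as a block (edgeR adjusted p = 0.0722). It was -2.30 with the level of globin genes as a covariate (edgeR adjusted p = 0.519). The embryo Isl1_hypo 3 stood apart from the other libraries. Its counts declined with GC content, by 0.295 in log2 CPM for each 10 points of GC relative to the mean of all libraries, against slopes of -0.0375 to 0.112 in the other 7, and 339 of the 13769 tested genes had no count in it, against 43 to 80 elsewhere. In the same libraries the summed CPM of 10 cardiomyocyte markers was 41001 to 51044 in CTRL and 45273 to 53957 in Isl1_hypo, with 5 of the 10 markers higher in Isl1_hypo. The largest part of that sum is Actc1, while the myosin heavy chains Myh7 (-0.49) and Myh6 (-0.31) were lower in Isl1_hypo at an unadjusted p of 0.00202 and 0.0396 in edgeR (adjusted p = 0.165 and 0.391), and none of the 10 was higher at that level. The summed CPM of 9 globin genes, a sign of blood, was 2020 to 11897 in CTRL and 11870 to 25516 in Isl1_hypo. The means of 9 of 9 were higher in Isl1_hypo. Among the 9 are near-identical copies such as Hba-a1 and Hba-a2, which had the same values and count the same reads again. Because the ranges of the groups barely overlapped, globin level and genotype can hardly be told apart. Values given below with globin level as a covariate are therefore not estimates freed of blood.

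All 10 genes were detected in every library and passed the filter on low counts. None passed an adjusted p of 0.05 in the quasi-likelihood test of edgeR, a threshold reached by 37 genes, or 0.269% of those tested. At an unadjusted p of 0.05, 1 of the 10 was called (Dsp, lower in Isl1_hypo), next to 11.9% of all genes tested, or 6.17% in that direction, so that the share of the group was near that of all genes. DESeq2 called Dsp alone of the 10 at an adjusted p of 0.05, beside 319 of the 13769 genes tested. So did limma-voom, beside 134 of the 13769. In 4 genes the mean was higher in Isl1_hypo and in 6 it was lower, and the median log2 fold change of the 10 was -0.17 (range -0.46 to 0.48), against 0.01 over all genes. Only Dsp had groups that did not overlap in CPM, as did 8.5% of all genes (4.44% with Isl1_hypo lower and 4.06% with Isl1_hypo higher).

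**Figure D1:**
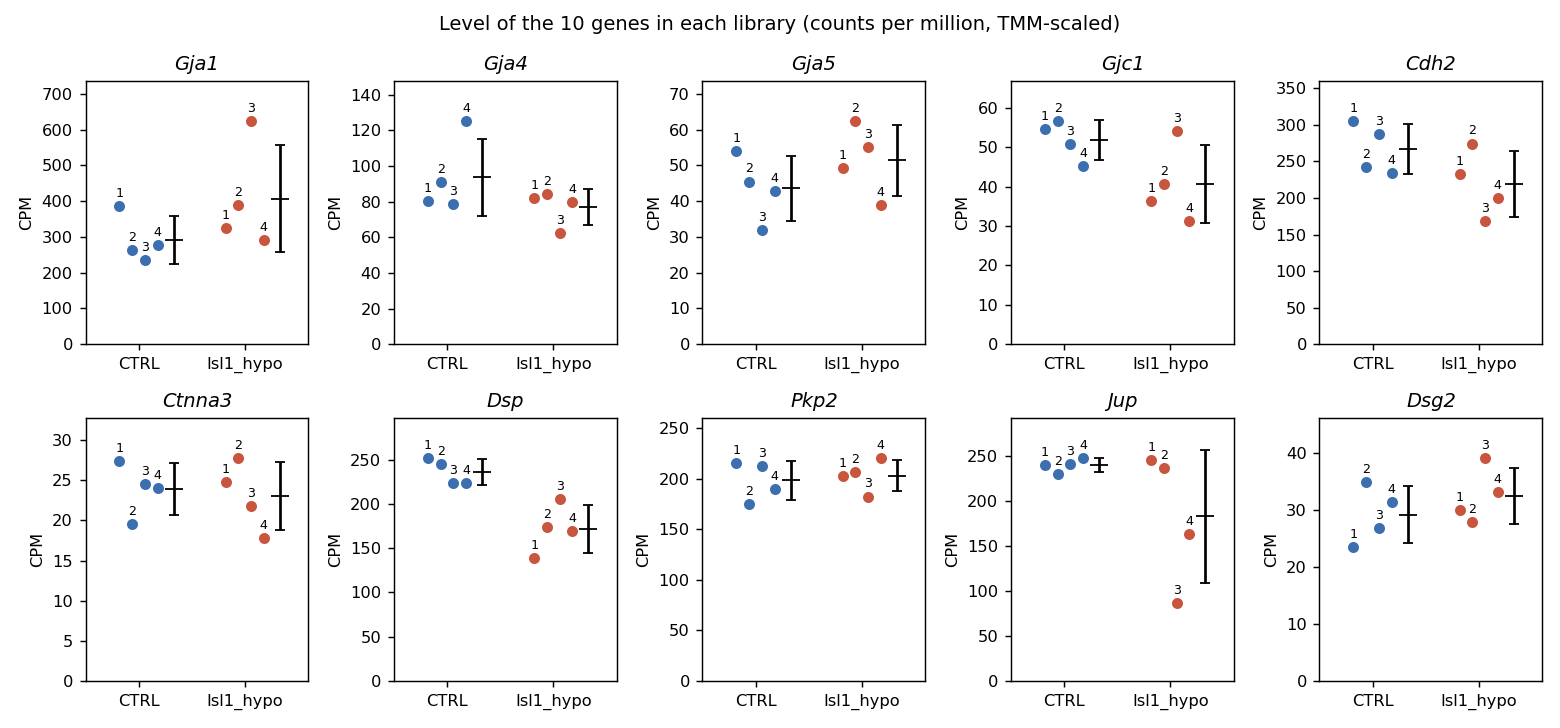
Level of each of the 10 genes in each library: the vertical axis is CPM, starting at 0 in each panel, blue points are CTRL and red points Isl1_hypo embryos with their replicate numbers, and the bar is the mean ± SD of 4. In Dsp the 4 red points (139 to 206 CPM) all lie under the blue ones (223 to 252 CPM), whereas the groups overlap in each of the other 9 panels.

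Dsp encodes desmoplakin, the plakin that links the desmosomal plaque to intermediate filaments. The gene lies on chromosome 13 (chr13:38243197-38290446, plus strand, mm9). Its level was 252, 245, 224 and 223 CPM in CTRL 1 to 4 and 139, 174, 206 and 169 CPM in Isl1_hypo 1 to 4. The highest Isl1_hypo embryo, replicate 3, was still under the lowest CTRL embryo. The mean went from 236 ± 14.7 CPM (SD, n = 4) to 172 ± 27.4 CPM (SD, n = 4), which is 72.7% of CTRL. The log2 fold change was -0.46 (SE 0.122, 95% interval -0.73 to -0.19). With an unadjusted p of 0.00285 in edgeR, Dsp ranked 216 of the 13769 genes, and its adjusted p was 0.182. Over all assignments of 4 of the 8 embryos, an exact two-sided permutation test on log2 CPM reached its lower limit (p = 0.0286).

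How far the lower level of Dsp stood out depended on the scale and on the test. DESeq2 gave a log2 fold change of -0.46 with an adjusted p of 0.0359, and limma-voom with sample weights gave -0.53 with an adjusted p of 0.0227. With each embryo left out in turn, Dsp was between -0.56 and -0.37 and its edgeR adjusted p was between 0.0501 and 0.408. After removal of the GC trend of each library the log2 fold change was -0.40 (edgeR adjusted p = 0.323), and the groups then overlapped, since Isl1_hypo 3 then stood at 7.83 on the log2 CPM scale, within the 7.77 to 7.95 of CTRL. With globin level as a covariate it was -0.44 (edgeR unadjusted p = 0.0526). Set against the mean log2 CPM of the 10 cardiomyocyte markers in the same library, the difference was -0.37 and the groups overlapped (exact permutation p = 0.114). In bulk tissue, fewer cells of a type and less RNA per cell cannot be told apart. Dsp is long (9566 bases, longer than 97.7% of tested transcripts). Over all genes, the slope of log2 CPM for each doubling of transcript length was 0.119 in CTRL 1 and -0.108 in Isl1_hypo 3. In the other libraries it was -0.0282 to 0.0314, relative to the mean of all libraries. The part of this trend in the level of Dsp was not tested. Of the 9555 words of 50 bases in Dsp, 311 also occur in Gm10129, a gene model that shares exonic bases with it.

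Jup encodes plakoglobin, a catenin found in desmosomes as well as adherens junctions. It lies on chromosome 11 (chr11:100230272-100259077, minus strand, mm9). In CTRL 1 to 4 its level was nearly constant at 241, 230, 241 and 248 CPM, a coefficient of variation of 3.16%. In Isl1_hypo 1 to 4 it was 246, 237, 86.9 and 163 CPM, a coefficient of variation of 40.4%. Replicates 1 and 2 thus lay at the level of CTRL, and replicates 3 and 4 lay under every CTRL embryo. The log2 fold change was -0.39 (SE 0.252, interval -0.94 to 0.16, edgeR adjusted p = 0.564), and over the alternatives it ran from -0.56 without Isl1_hypo 1 to -0.16 without Isl1_hypo 3, with -0.19 for globin level as a covariate and -0.21 for limma-voom. The Jup transcript is richer in GC than 91.6% of tested genes, which is the direction in which counts were low in Isl1_hypo 3. With the GC trend of each library removed, Isl1_hypo 3 stood at 6.87 and Isl1_hypo 4 at 7.32 in log2 CPM, still under the 7.79 to 7.85 of CTRL.

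The other desmosomal genes differed little between the groups. Pkp2 (plakophilin), an armadillo protein of the desmosomal plaque on chromosome 16 (chr16:16213411-16272805, plus strand, mm9), had 216, 175, 212 and 190 CPM in CTRL 1 to 4 and 203, 207, 182 and 220 CPM in Isl1_hypo 1 to 4. The groups covered the same range, and the log2 fold change of 0.03 had the narrowest interval of the 10 genes, from -0.20 to 0.26 (edgeR adjusted p = 0.926). Dsg2, the desmosomal cadherin desmoglein on chromosome 18, had 23.5, 35.0, 26.9 and 31.5 CPM in CTRL 1 to 4 and 30.0, 28.0, 39.2 and 33.2 CPM in Isl1_hypo 1 to 4. Its groups overlapped as well, with a log2 fold change of 0.16 (interval -0.19 to 0.51, edgeR adjusted p = 0.723). That value was 0.06 without CTRL 1 or without Isl1_hypo 3, 0.26 without CTRL 2, 0.028 with limma-voom and 0.015 with globin level as a covariate.

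**Figure D2:**
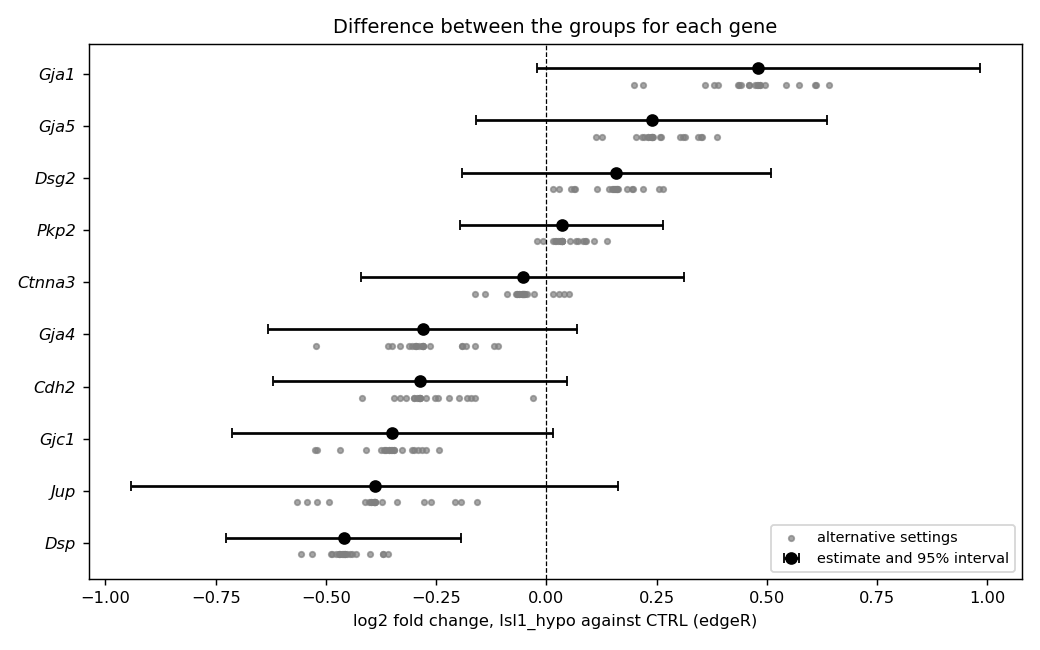
Difference between the groups for each of the 10 genes: the horizontal axis is the log2 fold change of Isl1_hypo against CTRL, black points are edgeR estimates with their 95% intervals, and grey points are the values under the 21 alternative settings. The interval of Dsp (-0.73 to -0.19) is the only one that leaves out 0, and the grey points of Ctnna3 and Pkp2 lie on both sides of 0.

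Cdh2 encodes N-cadherin, the classical cadherin of heart muscle. It lies on chromosome 18. Its level was 305, 242, 288 and 234 CPM in CTRL 1 to 4 and 233, 275, 168 and 200 CPM in Isl1_hypo 1 to 4. In 3 of the 4 Isl1_hypo embryos it was under every CTRL embryo, and replicate 2 lay among them. The log2 fold change was -0.29 (SE 0.152, interval -0.62 to 0.05, edgeR adjusted p = 0.491), and over the alternatives it ran from -0.42 to -0.03, the last with globin level as a covariate. Ctnna3 encodes an alpha-catenin found mainly in heart and testis that ties the cadherin complex to actin, and spans a long stretch of chromosome 10 (chr10:62892846-64466415, plus strand, mm9). Its level was 27.4, 19.6, 24.5 and 24.1 CPM in CTRL 1 to 4 and 24.8, 27.8, 21.7 and 17.8 CPM in Isl1_hypo 1 to 4. The groups overlapped, the log2 fold change was -0.05 (interval -0.42 to 0.31, edgeR adjusted p = 0.928), and its sign turned under 4 of 21 alternatives.

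Gja1, the main gap junction gene of working ventricular muscle, which is also made by epicardial and mesenchymal cells, lies on chromosome 10 (chr10:56097106-56110225, plus strand, mm9). Its level was 387, 264, 237 and 279 CPM in CTRL 1 to 4 and 325, 388, 624 and 290 CPM in Isl1_hypo 1 to 4. The highest value belonged to Isl1_hypo 3, and the other 3 Isl1_hypo embryos lay within or next to the range of CTRL. The mean was 292 ± 66.1 CPM (SD, n = 4) in CTRL and 407 ± 150 CPM (SD, n = 4) in Isl1_hypo, with a log2 fold change of 0.48 (SE 0.23, interval -0.02 to 0.98, edgeR adjusted p = 0.443). Without Isl1_hypo 3 the log2 fold change was 0.20, and with each other embryo left out it was at least 0.39. The Gja1 transcript has a low GC content (44.4%, higher than 18.5% of tested genes), yet Isl1_hypo 3 also stood above CTRL after removal of the GC trend, at 9.25 against 7.92 to 8.58 in log2 CPM. The summed CPM of 4 epicardial markers was 45.7 to 265 in CTRL and 332 to 545 in Isl1_hypo, highest in Isl1_hypo 3, with 4 of 4 markers higher in Isl1_hypo. The summed CPM of 8 mesenchymal markers was 1597 to 2597 in CTRL and 992 to 2653 in Isl1_hypo (at most 1410 without Isl1_hypo 1, and then below CTRL), lowest in Isl1_hypo 3, with 2 of 8 higher in Isl1_hypo and 0 of 8 without Isl1_hypo 1. The part of either tissue in the level of Gja1 was not tested.

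Gjc1, the earliest connexin of the embryonic heart, lies on chromosome 11 (chr11:102660893-102681014, minus strand, mm9). Its level was 54.7, 56.7, 50.8 and 45.3 CPM in CTRL 1 to 4 and 36.4, 40.8, 54.2 and 31.3 CPM in Isl1_hypo 1 to 4. As with Cdh2, 3 of the 4 Isl1_hypo embryos were under every CTRL embryo, but here replicate 3 was the exception. The mean was 51.9 ± 5.0 CPM (SD, n = 4) in CTRL and 40.7 ± 9.80 CPM (SD, n = 4) in Isl1_hypo, or 78.4% of CTRL. The log2 fold change was -0.35 (SE 0.166, interval -0.71 to 0.02) with an unadjusted p of 0.0588 and an adjusted p of 0.442 in edgeR. It reached an unadjusted p of 0.05 under 8 alternatives and an adjusted p of 0.05 under none, the lowest being 0.114 with limma-voom. All 3 transcripts listed for Gjc1 gave -0.34 to -0.32 when fitted separately, and transcripts of a gene share most of their reads.

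The connexins of arterial endothelium did not separate the groups. Gja4, which is made by arterial endothelium and endocardium, lies on chromosome 4 (chr4:126988665-126991283, minus strand, mm9) and had 80.5, 90.8, 78.5 and 125 CPM in CTRL 1 to 4 and 82.2, 84.4, 62.3 and 79.9 CPM in Isl1_hypo 1 to 4. Its log2 fold change of -0.28 (interval -0.63 to 0.07, edgeR adjusted p = 0.516) was -0.11 without CTRL 4, -0.12 with GC trends removed and -0.52 with globin level as a covariate. Gja5, a connexin of atrium, conduction system and arteries, lies on chromosome 3 (chr3:96708616-96881339, plus strand, mm9) and had 54.0, 45.5, 32.1 and 42.8 CPM in CTRL 1 to 4 and 49.4, 62.4, 55.0 and 38.8 CPM in Isl1_hypo 1 to 4. Its groups overlapped, with a log2 fold change of 0.24 (interval -0.16 to 0.64, edgeR adjusted p = 0.631), which was between 0.11 (without CTRL 3) and 0.35 (without CTRL 1) with 1 embryo left out and 0.39 with globin level as a covariate. Of the 5742 words of 50 bases in Gja5, 116 also occur in Gpr89. The summed CPM of 4 further markers of arterial endothelium was 96.6 to 139 in CTRL and 90.1 to 128 in Isl1_hypo.

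**Figure D3:**
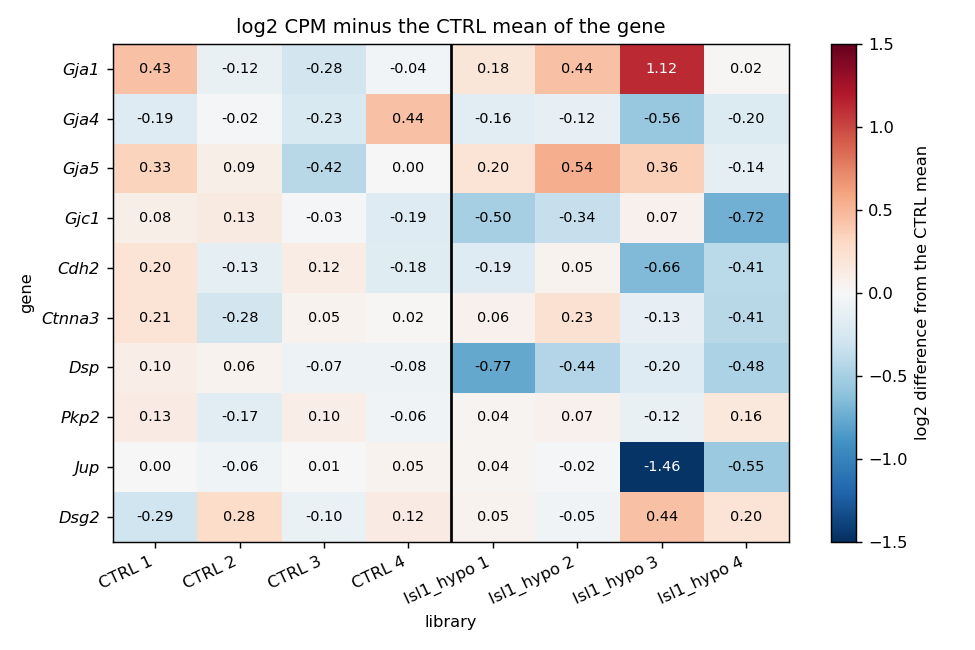
Level of each gene (vertical axis) in each library (horizontal axis) as log2 CPM minus the CTRL mean of that gene; red is above and blue below that mean. Isl1_hypo 3 carries the largest departures, 1.12 in Gja1 and -1.46 in Jup, while Dsp is below its CTRL mean in all 4 Isl1_hypo embryos.

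The 4 Isl1_hypo embryos varied among themselves in these genes. Dixon's test found no outlying embryo in any of 22 groups of 4 (10 genes and Isl1 in CTRL and in Isl1_hypo), where chance would give 1.1. Isl1_hypo 3 was the lowest library for 3 of the 10 genes and the highest for 2, and Isl1_hypo 4 was the lowest for 2. Leaving out Isl1_hypo 3 brought Gja1 to 0.20, Jup to -0.16 and Cdh2 to -0.18, and took Gjc1 to -0.52 and Dsp to -0.56. No gene of the 10 passed an adjusted p of 0.05 in edgeR with any 1 embryo left out. Isl1_hypo 1, the shallowest library, had the lowest Dsp level and lay within the range of CTRL for Jup and Gja1.

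Levels of different genes can be compared only per length, here as CPM per kilobase of transcript. In CTRL, Gja1 was the most abundant of the 10 at 94.1 ± 21.3 CPM per kilobase (SD, n = 4). It was followed by Pkp2 at 68.9 ± 6.67, Gja4 at 55.7 ± 12.8, Cdh2 at 55.4 ± 7.15 and Jup at 48.1 ± 1.52 CPM per kilobase, and the ranges of these 4 overlapped from each to the next, whereas that of Gja1 lay just above Pkp2. Dsp at 24.7 ± 1.54, Gjc1 at 20.5 ± 1.98 and Gja5 at 13.7 ± 2.85 CPM per kilobase formed the middle and did not overlap their neighbours. Ctnna3 at 6.53 ± 0.890 and Dsg2 at 5.08 ± 0.875 CPM per kilobase were the lowest, and these overlapped. The RPKM values deposited by the authors gave the same order of CTRL means. In Isl1_hypo, Gjc1 at 16.1 and Gja5 at 16.2 CPM per kilobase stood level.

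On this scale the makeup of the 4 connexins could be followed within each embryo. Their summed level was 184 ± 25.2 CPM per kilobase (SD, n = 4) in CTRL and 209 ± 48.7 (SD, n = 4) in Isl1_hypo. Gja1 made up 50.8% ± 5.74 of the sum in CTRL and 61.4% ± 7.60 in Isl1_hypo (SD, n = 4 each), with the highest share, 72.6%, in Isl1_hypo 3. Gja4 made up 30.5% ± 6.28 and 23.1% ± 6.79, and Gja5 7.42% ± 0.789 and 7.85% ± 1.32, in the same order. The share of Gjc1 was 10.2%, 12.7%, 13.1% and 9.17% in CTRL 1 to 4 and 7.85%, 7.64%, 7.74% and 7.48% in Isl1_hypo 1 to 4. These shares did not overlap, although the levels of Gjc1 did, since in Isl1_hypo 3, where Gjc1 was highest among the Isl1_hypo embryos, the sum was also largest (277 CPM per kilobase). Shares of 1 sum depend on each other, and they were not tested.

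**Figure D4:**
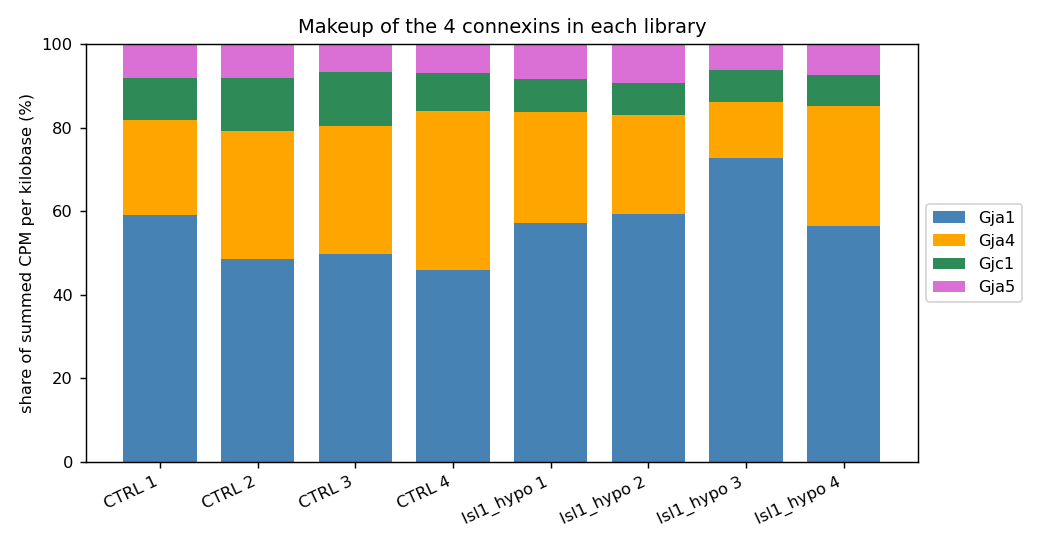
Share of each of the 4 connexins in their summed CPM per kilobase (vertical axis, percent) in each library (horizontal axis). Gja1 takes the largest part in every embryo, 72.6% in Isl1_hypo 3, and the Gjc1 part is 9.17% to 13.1% in CTRL and 7.48% to 7.85% in Isl1_hypo.

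Wider lists of junction genes, written down by function, were placed beside the 10. No gene of these lists passed an adjusted p of 0.05 in edgeR. Of 16 other connexins, 5 passed the filter on low counts. Gja3, a connexin best known from the lens, was the only gene under an unadjusted p of 0.05, beside 11.9% of all genes (6.17% lower). It had 10.2 ± 2.45 CPM (SD, n = 4) in CTRL and 6.81 ± 1.08 CPM (SD, n = 4) in Isl1_hypo, a log2 fold change of -0.58 (edgeR adjusted p = 0.342), and with the GC trend of each library removed this was -0.35 with an unadjusted p of 0.220 in edgeR. With 1 embryo left out Gja3 was between -0.75 and -0.50, at an unadjusted p of up to 0.0712 in edgeR. The median log2 fold change of the 5 was -0.06.

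Of 13 other desmosome genes, 6 were tested, 5 of which had a higher mean in Isl1_hypo, beside 7007 of 13769 over all genes. All of the 5 but Dsc2 had group means of at most 3.57 CPM, and their rise rested mainly on a single Isl1_hypo embryo. Dsc2, which encodes desmocollin, the partner of desmoglein across the desmosome, had 27.6, 44.2, 42.8 and 39.0 CPM in CTRL 1 to 4 and 62.6, 65.2, 58.4 and 55.2 CPM in Isl1_hypo 1 to 4. Its groups did not overlap, and its log2 fold change was 0.65 (SE 0.153) with an unadjusted p of 0.0012 and an adjusted p of 0.130 in edgeR. DESeq2 (adjusted p = 0.00699) and limma-voom (adjusted p = 0.0424) called it higher. The sign of its difference was opposite to that of Dsp. Ppl, the periplakin of stratified epithelia, stood at 11.5 CPM in Isl1_hypo 1 and at no more than 1.73 CPM elsewhere, so that its log2 fold change of 2.54 became 0.61 without that embryo.

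Desmosomes are also plentiful in epithelium. The summed CPM of 10 epithelial markers was 98.6 to 176 in CTRL and 180 to 412 in Isl1_hypo (at most 326 without Isl1_hypo 1), with 10 of 10 higher in Isl1_hypo and 6 of 10 without Isl1_hypo 1. Outside Isl1_hypo 1 the sum was nearly all Krt8, Krt18 and Krt19, the other 7 markers adding at most 5.15 CPM. The summed CPM of the epicardial markers given above was also higher in all 4 Isl1_hypo embryos than in any CTRL embryo. The part of epicardium in the level of Dsc2 was not tested. Cldn6, Cdh1 and Esrp1, the most restricted of them, were found almost only in Isl1_hypo 1, at 38.5, 15.3 and 6.03 CPM, and had at most 0.311 CPM in the other 7 libraries. With the mean log2 CPM of the 10 markers as a covariate, Dsp had a log2 fold change of -0.36. For Dsc2 the same covariate gave a log2 fold change of 0.64 (edgeR adjusted p = 0.212), and leaving out Isl1_hypo 1 gave 0.63 (edgeR adjusted p = 0.179).

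Among other cadherins, catenins and their actin linkers, 19 of 20 genes in the table were tested, 6 with a higher and 13 with a lower mean in Isl1_hypo. At an unadjusted p of 0.05, 4 were lower and none higher, beside 6.17% and 5.69% of all genes. These were Tln2 (-0.39), the talin abundant in heart muscle, Vcl (-0.33), which encodes vinculin, Tln1 (-0.37), which encodes the widespread talin, and Cdh5 (-0.54), the cadherin of endothelium. The groups of Tln2, Vcl and Cdh5 did not overlap in CPM, which are 3 of the 19, beside 8.5% of all genes. DESeq2 called Tln2 lower (adjusted p = 0.0262). With Isl1_hypo 1 and 3 both left out Tln1 was -0.22, and with globin level as a covariate Tln1 was -0.39 with a larger error (SE 0.219 against 0.137, edgeR unadjusted p = 0.107) and Vcl was -0.25 (edgeR unadjusted p = 0.185). The summed CPM of 9 endothelial markers, Cdh5 among them, was 759 to 881 in CTRL and 593 to 801 in Isl1_hypo, with 2 of 9 markers higher in Isl1_hypo.

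The 15 scaffold and linker genes of the disc were all tested, 5 with a higher and 10 with a lower mean in Isl1_hypo and a median log2 fold change of -0.08. At an unadjusted p of 0.05, 5 were lower and 2 higher, beside 6.17% and 5.69% of all genes. Ank3 (ankyrin-G, which anchors sodium channels at the disc) had the smallest p, with 159, 152, 155 and 123 CPM in CTRL 1 to 4 and 103, 107, 90.9 and 113 CPM in Isl1_hypo 1 to 4. Its log2 fold change was -0.51 (edgeR unadjusted p = 0.000805, adjusted p = 0.106). Its groups did not overlap, as in 4 of the 15 genes (Nrap, Flnc and Ank2 as well), beside 8.5% of all genes. DESeq2 (adjusted p = 0.00479) and limma-voom (adjusted p = 0.0432) called Ank3 lower, whereas with globin level as a covariate it was -0.23 (edgeR unadjusted p = 0.157). The other 4 of the 5 lower genes were Nrap (-0.69), Xirp1 (-0.44) and Flnc (-0.41), which tie actin bundles to the membrane in muscle, and Ank2 (-0.29), another ankyrin. Of these, DESeq2 called Nrap (adjusted p = 0.0276). Without Isl1_hypo 3, Xirp1 was -0.28 and Flnc -0.27, and with Isl1_hypo 1 and 3 both left out they were -0.21 and -0.16 (edgeR unadjusted p = 0.123 and 0.118). Ank2 was -0.27 with the same 6 libraries, nearly as with all 8, at an unadjusted p of 0.106 in edgeR. Higher at an unadjusted p of 0.05 were Cxadr (0.32), an adhesion receptor of the disc, and Lims1 (0.31), a partner of integrin-linked kinase. With 1 embryo left out Cxadr was between 0.24 and 0.41, at an unadjusted p of up to 0.0778 in edgeR, and neither gene reached that threshold with GC trends removed. With globin level as a covariate, none of these 7 genes was under an unadjusted p of 0.05 in edgeR (0.113 to 0.614), although Cxadr (0.28) and Nrap (-0.48) moved by less than 1.5 times and the errors grew, from an SE of 0.121 to 0.208 in Cxadr.

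**Figure D5:**
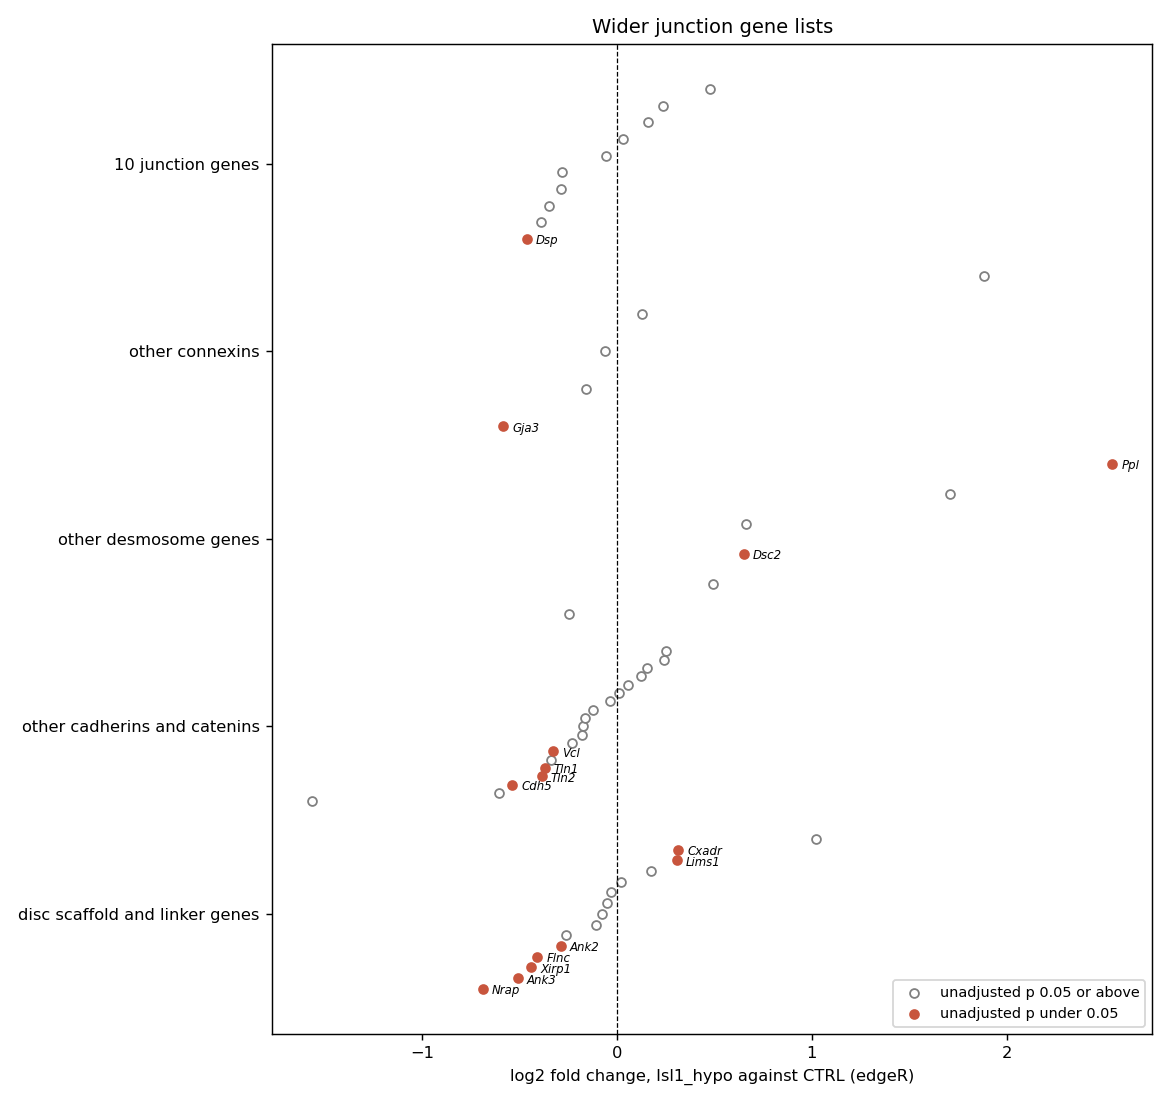
Log2 fold change of Isl1_hypo against CTRL (horizontal axis) for each tested gene of the 10 and of the 4 wider lists (vertical axis; points are spread out by value within a list for legibility); filled points have an unadjusted p under 0.05 in edgeR. Most filled points of the cadherin and scaffold lists lie left of 0, at -0.69 to -0.29, and Dsc2 at 0.65 and Ppl at 2.54 lie right of it.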

How the data were processed

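RNA from single embryos was sequenced on a BGISEQ-500 instrument, and reads were aligned by the authors with STAR to mm9. Exon reads per RefSeq transcript were counted by the authors using HOMER with strand ignored, so that overlapping and antisense genes share reads. The deposited counts are raw whole numbers. RPKM values, computed by the authors with edgeR, were used only for the order of levels. Columns of the authors' own DESeq2 comparison (mean signal, fold change, its error, statistic, p-values) were not used.

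For each of 20701 symbols, the transcript of highest mean count was kept, out of 31507 transcripts; Ctnna3, Gjc1 and Gja5 had more than 1. Genes with low counts were removed with filterByExpr, which left 13769. The groups were compared with edgeR 4.0.16 (R 4.3.3; TMM, glmQLFit, glmQLFTest, no covariates), with Benjamini-Hochberg adjustment across the 13769 genes. The common dispersion was 0.0699. The SE is the size of the log2 fold change divided by the square root of the F statistic, and intervals are at 95%. Log2 CPM had a prior count of 2. Single values were compared by an exact two-sided permutation test over 70 assignments, for which the smallest p is 0.0286. The scripts were tested on simulated data.

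The members, gene lists and markers were chosen with earlier results of these data known. Named were the 10 genes, Isl1 and, of the wider lists, genes under an unadjusted p of 0.05 (the rule also allowed the 3 genes of highest count in each list, which are not given); Cldn6, Cdh1, Esrp1, Dsg2 and the library Isl1_hypo 3 were singled out after their values were seen. Alternatives were RLE and upper quartile factors, DESeq2 1.42.0, limma-voom (limma 3.58.1) with sample weights, no filter, at least 10 counts in every library, the longest transcript, the replicate number as a block, mean log2 CPM of globin genes (near-identical copies such as Hba-a1 and Hba-a2 share values and enter more than once) or epithelial markers as covariate, and omission of each library. Added after seeing the data were removal of GC trends (loess, span 0.5; GC known for 91.4% of tested genes), leaving out Isl1_hypo 1 and 3, every transcript, and levels relative to cardiomyocyte markers. Coordinates are from GENCODE on mm9, and promoter windows from RefSeq on GRCm38.p6.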

Additional observations from a re-analysis of the deposited data

How the results depend on the processing

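Of the 10 genes, 8 kept the sign of their log2 fold change under all 21 alternatives each. Ctnna3 (-0.05) turned to 0.028 with limma-voom and 0.040 relative to cardiomyocyte markers, and with 1 library left out lay between -0.16 and 0.051 (above 0 without CTRL 1 or Isl1_hypo 4). Pkp2 (0.03) lay between -0.021 and 0.083 with 1 library left out (below 0 without CTRL 2 or Isl1_hypo 4). Dsp passed an adjusted p of 0.05 with DESeq2 (-0.46) and limma-voom (-0.53), and with no other setting. Each of these tools thus called 1 of the 10 genes, beside 319 (DESeq2) and 134 (limma-voom) of the 13769 genes tested. Isl1 was -2.29 with the replicate number as a block (edgeR adjusted p = 0.0722) and -2.30 with the globin covariate (edgeR adjusted p = 0.519), and passed the threshold under its other 18 alternatives; with 1 library left out it was between -2.46 and -2.14. Nothing in the labels pairs the embryos by replicate number. Deviations of same-numbered libraries correlated at -0.0209 to 0.0219, and 1 of 4 correlated best with its own number. So few libraries cannot show whether same-numbered embryos shared a batch.

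The number of genes with an adjusted p under 0.05 in edgeR, 37, was 0 with the replicate block (1582 at an unadjusted p under 0.05), 0 with the globin covariate (499), 23 with the epithelial covariate, 319 with DESeq2 and 134 with limma-voom, and between 4 (without CTRL 3) and 48 (without Isl1_hypo 3) with 1 library left out; it was 8 without CTRL 1, 5 without CTRL 2, 12 without Isl1_hypo 2 and 11 without Isl1_hypo 4. The cause was not tested. The number of the 10 under an unadjusted p of 0.05, 1, was 2 with upper quartile factors, DESeq2, no filter, the replicate block, the epithelial covariate, GC trends removed or Isl1_hypo 1 and 3 both left out, 3 with limma-voom, and 1 to 2 with 1 library left out. Dsp was among them except with the globin covariate, where it was -0.44 (unadjusted p = 0.0526 in edgeR) and the 1 gene was Gja4 (-0.52); Gjc1, Gja1 or Cdh2 made up the rest. Of all 13769 genes tested, 1633 were under an unadjusted p of 0.05 in edgeR, 1817 in DESeq2 and 1880 in limma-voom. With 1 library left out, 1285 to 1930 genes were under it in edgeR. The median over all genes moved by at most 0.03. With 4 embryos a group, the intervals of 9 of the 10 genes include 0.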
